A study of Mus musculus with 6 samples.

Results

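The Hedgehog pathway genes Shh, Ptch1, Hhip, Smo, Sufu, Gli1, Gli2, Gli3, Foxa2 and Nkx2-2 were examined in whole wild-type and heterozygous Tcof1+/- mouse embryos. The members were taken as every probe set on the array whose platform annotation gives a single symbol that is 1 of these 10, which found 23 of 45037 probe sets, for 10 of 18193 named genes. Each probe set combines several short probes against a transcript into 1 signal. The rule reads gene symbols and no measured value, but the genes were picked with earlier results of these data known. The arrays held RNA of 3 wild-type and 3 Tcof1+/- littermates at embryonic day 8.5, 1 embryo to an Affymetrix Mouse Genome 430 2.0 array. Tcof1 encodes treacle, a nucleolar protein of ribosomal RNA synthesis, and is the gene reduced in Treacher Collins syndrome. The labels do not state strain, sex or how the mutant allele was made.

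Sonic hedgehog is a secreted, lipid-modified ligand made at this stage by the notochord, the floor plate of the neural tube and the gut endoderm. In its absence the receptor Patched1 holds the membrane protein Smoothened inactive, and Gli2 and Gli3 are restrained by Sufu or processed to repressors. Ligand binding frees Smoothened, active Gli proteins enter the nucleus, and Ptch1, Hhip and Gli1 are themselves transcribed in response. In the ventral neural tube high Hedgehog activity induces Foxa2 in the floor plate and Nkx2-2 beside it, and in the head the pathway is known for patterning the face and for survival of cranial neural crest cells.

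Signals were linear and in arbitrary units. Every array as deposited had a 2% trimmed mean of 150, a figure found from the values. Array medians lay between 21.0 and 25.6. The labels were checked on Tcof1, whose brightest probe set gave 382, 393 and 387 in wild-type embryos 1, 2 and 3 and 222, 179 and 231 in the heterozygotes. Its log2 difference was -0.88 (limma adjusted p = 0.0352), a call lost when any single array was left out. Bacterial control probe sets with no spiked target gave at most 8.55 to 13.5 per array, and signals in that range are called background here. The Gapdh control probe sets differed, 3′ minus 5′ on the log2 scale, by 0.847, 1.04 and 0.841 in wild-type embryos 1, 2 and 3. In the heterozygotes this difference was 0.806, 0.682 and 0.805, without overlap between genotypes. Its part in the values of other probe sets was not tested. Replicates 1 and 2 of both genotypes were scanned on a first day and replicate 3 of both on a second. The instrument records also give a module number, 1, 3 and 1 for wild-type embryos 1, 2 and 3 and 2, 4 and 2 for the heterozygotes. No module held both genotypes, so module and genotype cannot be told apart. Values of different probe sets are not compared with each other, because probe sets differ in how brightly they report a transcript.

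Of the 23 probe sets, 14 were above background on all 6 arrays, 6 on some arrays and 3 on none. Every gene had at least 1 probe set that was bright enough to be tested, and 19 probe sets were tested in all. The filter used the mean over both genotypes. The 4 that were too dim were the dimmest probe sets of Shh, Ptch1, Smo and Gli3, with signals of 1.12 to 15.7. None of the 19 passed at an adjusted p under 0.05 (limma with Benjamini-Hochberg adjustment over 27022 probe sets, adjusted p from 0.685 to 0.999), and 1 had an unadjusted p under 0.05. Across all tested probe sets 0.0814% passed the adjusted threshold and 6.22% the unadjusted one. The genotypes did not overlap on 3 of the 19 (15.8%), all 3 lower in heterozygotes, against 12.2% of all tested probe sets in either direction and 6.18% in the lower direction. In either direction the members' share was close to that of all probe sets, and in the lower direction it was above it. Of these 3 probe sets 2 are of 1 gene, Smo, and the difference in share was not tested.

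**Figure D1:**
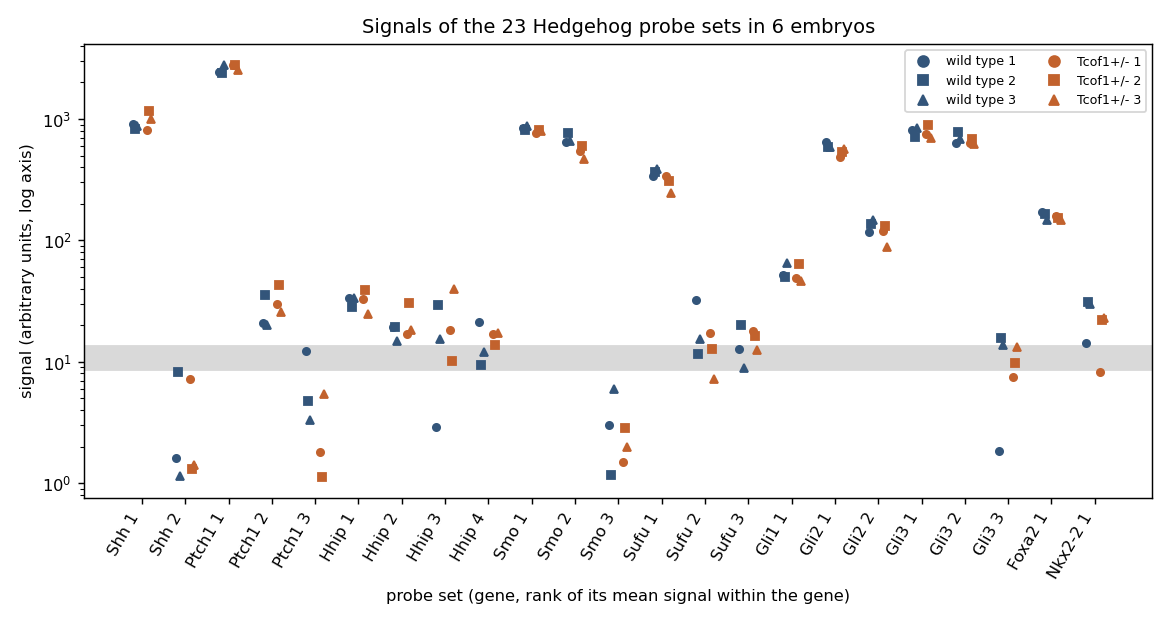
Signal of each of the 23 probe sets (log axis, arbitrary units) in 3 wild-type (blue) and 3 Tcof1+/- (orange) embryos, with probe sets numbered by mean signal within each gene and the grey band marking the highest background control of each array, 8.55 to 13.5. The brightest probe set of every gene except Nkx2-2 lies above the band on all 6 arrays, and the genotypes overlap on most.

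Promoter sequences of the genes were looked up to show where letters of a Gli site occur next to a member's start. RefSeq windows of GRCm38.p6, 250 bases before to 50 after each start, were found for 8 of the 10 genes, 10 windows in all. Shh and Gli1 had no window, so the counts below do not cover them. The Gli consensus GACCACCCA, searched on both strands, was in 0 of these 10 windows and in 0.253% of all 32851 windows. With any base allowed in its middle (GACCNCCCA, which takes in the former), it was in 1 window of a member, Foxa2, and in 0.977% of all windows. An NKX2 core, TNAAGTG, was in 1 window, that of Nkx2-2, and in 11.5% of all windows, and a FOXA core, TGTTTNC, was in 0 of the 10 and in 20.5% of all. Both matches are shown within 30 bases, read 5′ to 3′ on the minus strand of chromosome 2, with the match, the reverse complement of the motif as written, in capitals. The Foxa2 stretch is chr2:148045511-148045540, where the match begins 66 bases before 1 of 3 listed starts, and the Nkx2-2 stretch is chr2:147186581-147186610, where it begins 197 bases before the start. By gene, the members' windows were 56.3% to 76.3% G or C, against a median of 52.7% over all windows. The shares over all windows were not adjusted for this. A match in letters is a description and not a measured binding site.
Foxa2: tggggaggggTGGGAGGTCggctggcgagg
Nkx2-2: ctgtcttcatcCACTTGActcccaagaccc

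The ligand was measured by a single usable probe set. Shh (1436869_at) gave 912, 828 and 872 in wild-type embryos 1, 2 and 3. In heterozygous embryos 1, 2 and 3 it gave 804, 1171 and 1005. The heterozygotes thus held both the lowest and the highest embryo, so the genotypes overlapped. Heterozygous embryos 1 and 2 also held the extremes of the summed yolk sac markers given below, in the opposite order. The means were 871 ± 42.0 and 994 ± 184 (SD, n = 3), a coefficient of variation of 4.83% among wild types and 18.5% among heterozygotes; whether the spread differs was not tested. The log2 difference, heterozygotes minus wild types, was 0.17 (SE 0.12, limma adjusted p = 0.853). Its 95% interval of -0.10 to 0.45 on the log2 scale spans a level in heterozygotes of 0.931 to 1.37 times that of wild types. The difference was 0.16 within the first scan day and 0.20 within the second. The other Shh probe set was at 1.14 to 8.27, at or under background on every array.

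Both proteins that bind the ligand at the cell surface, Patched1 and the Hedgehog-interacting protein Hhip, are products of Hedgehog target genes. Ptch1 (1428853_at) gave 2437, 2383 and 2760 in wild types and 2807, 2777 and 2550 in heterozygotes. Its embryos lay within 1.18-fold of each other and the genotypes overlapped. The means were 2527 ± 204 and 2711 ± 141 (SD, n = 3), and the log2 difference was 0.10 (SE 0.07, interval -0.06 to 0.27, limma adjusted p = 0.854). Within scan days it was 0.21 (first) and -0.11 (second). A dimmer Ptch1 probe set, at 20.2 to 35.4 in wild types and 25.8 to 43.3 in heterozygotes, differed by 0.36 (SE 0.31, adjusted p = 0.872).

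All 4 probe sets of Hhip were dim. The brightest (1455277_at) gave 33.5, 28.1 and 33.6 in wild types and 32.7, 38.7 and 24.9 in heterozygotes, which again held both extremes. Its difference was 0.00 (SE 0.25, interval -0.56 to 0.57, limma adjusted p = 0.999), so changes of up to about 1.48-fold up or to 0.676 of the wild-type level down lie inside the interval. The other 3 differed by 0.21 to 0.65 with standard errors of 0.34 to 0.70, and 2 of these 3 were at background on 1 array each. The sign of the brightest probe set turned with quantile normalization (-0.03) and equal array medians (-0.01). It also turned without wild-type embryo 2 (-0.08), heterozygous embryo 1 (-0.02) or heterozygous embryo 2 (-0.14).

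Smoothened, the transducer that Patched1 holds in check, was the member with the smallest p. Smo on its second probe set (1427048_at) gave 641, 768 and 654 in wild types and 541, 594 and 471 in heterozygotes. All 3 heterozygotes lay below all 3 wild types. The means were 688 ± 70.0 and 535 ± 62.0 (SD, n = 3), the log2 difference was -0.36 (SE 0.11, interval -0.61 to -0.11), and the unadjusted p was 0.00906 while the limma adjusted p was 0.685. On the brightest Smo probe set (1427049_s_at) the values were 843, 808 and 869 against 763.5, 808 and 795. The genotypes were apart there too, but the nearest embryos stood at 807.9 and 807.6. That probe set differed by -0.09 (SE 0.07, interval -0.26 to 0.08, adjusted p = 0.865). The 2 probe sets thus had the same sign and different sizes. Both were negative within each scan day, at -0.31 and -0.47 on 1427048_at and at -0.07 and -0.13 on 1427049_s_at.

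Sufu binds Gli proteins in the cytoplasm and holds them inactive. Its brightest probe set (1450024_at) gave 337, 364 and 389 in wild types and 341, 308 and 244 in heterozygotes. The genotypes overlapped through wild-type embryo 1 and heterozygous embryo 1, and heterozygous embryo 3 was the lowest. The means were 363 ± 26.1 and 298 ± 49.2 (SD, n = 3), with a log2 difference of -0.30 (SE 0.13, interval -0.59 to 0.00, limma adjusted p = 0.793). Within scan days it was -0.11 (first) and -0.67 (second), and leaving out heterozygous embryo 3 it was -0.16. The other 2 probe sets reached down to background and differed by -0.55 (SE 0.47) and 0.19 (SE 0.41).

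The Gli factors are the zinc finger transcription factors at the end of the pathway. Gli1, an activator whose transcription is widely read as pathway output, gave 52.2, 49.8 and 64.8 in wild types and 48.8, 64.1 and 46.6 in heterozygotes on its single probe set (1449058_at). Each genotype held 1 embryo near 64 and 2 near 50. The means were 55.6 ± 8.03 and 53.2 ± 9.52 (SD, n = 3), and the log2 difference was -0.07 (SE 0.20, interval -0.52 to 0.39, limma adjusted p = 0.964). The sign turned without wild-type embryo 3 (0.04) or heterozygous embryo 3 (0.02), and within scan days the values were 0.13 (first) and -0.46 (second).

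Gli2, the main activator of early Hedgehog responses in the neural tube, was the other member whose genotypes did not overlap. Its brightest probe set (1459211_at) gave 652, 592 and 587 in wild types and 490, 539 and 568 in heterozygotes. The highest heterozygote stood close under the lowest wild type. The means were 611 ± 36.2 and 532 ± 39.1 (SD, n = 3), with a log2 difference of -0.20 (SE 0.09, interval -0.40 to 0.01, limma adjusted p = 0.798). Within scan days it was -0.27 (first) and -0.05 (second). The second Gli2 probe set (1446086_s_at) overlapped, at 116 to 147 against 87.4 to 131, and differed by -0.26 (SE 0.18, adjusted p = 0.851), with -0.016 and -0.73 within the first and second day.

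Gli3 is processed to the main repressor where ligand is absent. On its brightest probe set (1455154_at) it gave 811, 712 and 840 in wild types and 752, 888 and 698 in heterozygotes, with both extremes among the heterozygotes. The log2 difference was -0.02 (SE 0.11, interval -0.26 to 0.22, limma adjusted p = 0.980). Its sign turned without any 1 of wild-type embryos 1 and 3 or heterozygous embryos 1 and 3, in a range over all single-array removals of -0.12 to 0.06. The second probe set (1456067_at) gave 631, 778 and 690 against 639, 685 and 623 and differed by -0.10 (SE 0.10, adjusted p = 0.880). The remaining probe set was dim and not tested. These intervals leave room for Gli3 levels in heterozygotes between 0.835 and 1.17 times wild type on the brightest probe set.

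**Figure D2:**
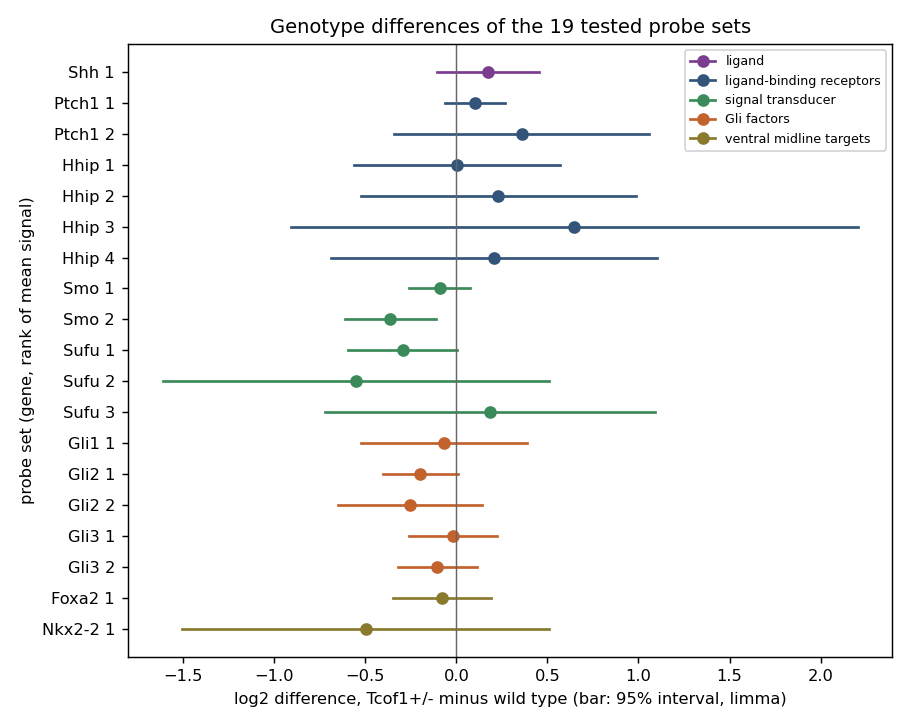
Log2 difference, Tcof1+/- minus wild type, of the 19 tested probe sets (dot) with its 95% interval from limma (bar), coloured by role and numbered by mean signal within each gene. The interval of Smo 2, -0.61 to -0.11, is the 1 that leaves out 0, and the dim probe sets of Hhip, Sufu and Nkx2-2 have the widest intervals.

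The ventral midline targets were represented by 1 probe set each. Foxa2, a forkhead factor of floor plate, notochord and endoderm (1422833_at), gave 171, 164 and 148 in wild types and 158, 152 and 147 in heterozygotes. All 6 embryos lay within 1.17-fold of each other. The means were 161 ± 12.0 and 152 ± 5.66 (SD, n = 3), and the log2 difference was -0.08 (SE 0.12, interval -0.35 to 0.19, limma adjusted p = 0.924). Nkx2-2, a homeodomain factor of the most ventral neural progenitors (1421112_at), gave 14.3, 31.1 and 30.02 in wild types and 8.27, 22.1 and 22.9 in heterozygotes. Embryo 1 was the lowest of each genotype, and in heterozygous embryo 1 the signal was at background. The log2 difference of -0.50 had a standard error of 0.45 (interval -1.50 to 0.51, adjusted p = 0.876), so that Nkx2-2 was not measured well enough to tell a level of 0.353 from one of 1.42 times the wild type.

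By role, the tested probe sets of the ligand and of the ligand-binding proteins numbered 1 and 6, and all had positive differences as fitted. The brightest of Hhip stood at 0.00, and each of the 4 Hhip probe sets turned sign with some single array left out. The brightest Ptch1 probe set was at -0.11 within the second scan day. All 5 of the Gli factors and both of the midline targets had negative differences, as had 4 of 5 of Smo and Sufu. Among these, the signs of Gli1 and of the brightest Gli3 probe set turned as above. None of these counts rests on a probe set that passed. Taking the brightest probe set of each gene, 3 genes were positive and 7 negative, with a median log2 difference of -0.07, and over all 12857 named genes tested the median was -0.01 with 52.7% negative. The median of the members against the mean of the wild types was -0.10 in heterozygous embryo 1, 0.041 in embryo 2 and -0.12 in embryo 3. The members' median was 0.02 within the first scan day, with 5 of 10 genes negative, and -0.20 within the second, with 9 of 10 negative. The second day held 1 embryo per genotype. Over all named genes tested the median was -0.02 within the first day and 0.006 within the second. Heterozygous embryo 3 had the lowest signal on 5 of the 9 member probe sets above 100 on every array, and heterozygous embryo 1 on 3. For the counts by day and by lowest embryo, the shares over all genes or probe sets were not computed.

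**Figure D3:**
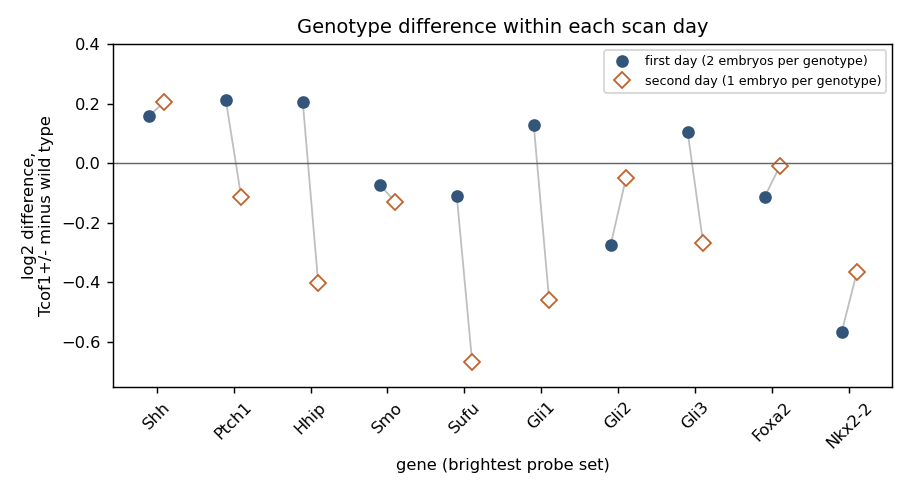
Log2 difference, Tcof1+/- minus wild type, of the brightest probe set of each gene, within the first scan day (filled circles, 2 embryos per genotype) and the second (open diamonds, 1 embryo per genotype). Shh is positive and Smo, Sufu, Gli2, Foxa2 and Nkx2-2 are negative on both days, whereas Ptch1, Hhip, Gli1 and Gli3 are positive on the first and negative on the second.

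The profile of Shh over the 6 embryos was set against other named genes, using the root mean square distance between log2 values centred on each gene's mean. Among 11797 genes with a range of at least 0.2, the nearest were Col9a1, a chain of type IX collagen, at 0.04, the collagen receptor gene Ddr2 at 0.05, and Itpripl2, a gene of a membrane protein, at 0.05. Like Shh, each was highest in heterozygous embryo 2 and then embryo 3. Col9a1, for example, gave 375, 355 and 354 in wild types and 342, 460 and 427 in heterozygotes. The nearest member was Gli3 at 0.17, and 1337 of the candidate genes lay nearer to Shh than Gli3 did. Ptch1 was at 0.19 and Gli1 at 0.20. With 6 arrays and so many genes, such closeness is a description of these embryos.

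Other genes of the pathway came from 4 lists. They held 62 genes; 59 were found on the array, and 55 were tested on their brightest probe set. None passed in limma over all probe sets (0 higher and 0 lower, adjusted p from 0.337 to 0.999), 6 of the 55 had an unadjusted p under 0.05 against 6.22% of all tested probe sets, and 24 differences were positive and 31 negative. The background share was 0.0777% called higher and 0.00370% called lower. Among genes that release or receive the ligand, 4 of 10 were positive and 6 negative with a median of -0.04. This list held the largest difference of the 55, that of Scube2. Scube2, which encodes a secreted protein that helps release lipid-modified Hedgehog from producing cells, gave 103, 96.2 and 121 in wild types and 33.3, 63.0 and 54.5 in heterozygotes. All heterozygotes were far below all wild types. The log2 difference was -1.10 (SE 0.24, interval -1.63 to -0.57, limma adjusted p = 0.337), and within scan days -1.08 (first) and -1.13 (second).

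Gas1 encodes a membrane-anchored co-receptor that binds the ligand together with Patched1. Its brightest probe set gave 1763, 1950 and 1599 in wild types and 1336, 950 and 1450 in heterozygotes, again without overlap. The means were 1771 ± 175 and 1245 ± 262 (SD, n = 3), with a log2 difference of -0.53 (SE 0.14, limma adjusted p = 0.635). Within scan days it was -0.72 (first) and -0.14 (second). The other 2 probe sets of Gas1 were also lower, at -0.40 (SE 0.17, adjusted p = 0.782, overlapping) and -1.88 (SE 0.40, adjusted p = 0.327, not overlapping), the last with heterozygotes at 4.99 to 15.1 and wild types at 31.6 to 41.6. Of the other co-receptor genes, Cdon gave a difference of -0.07 (limma adjusted p = 0.938) and Boc 0.02 (0.990). The ligand genes Ihh and Dhh were dim, at means of 24.3 and 19.1 in wild types. Cdon, Boc, Ihh and Dhh were chosen for mention after their values were seen.

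**Figure D4:**
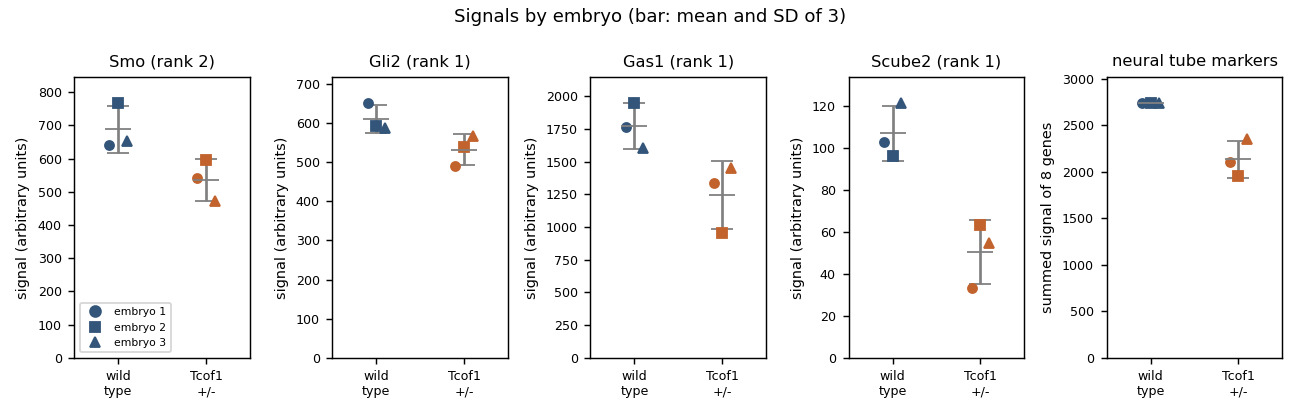
Signals (linear axis from 0, arbitrary units) of Smo on its second probe set, Gli2, Gas1 and Scube2 on their brightest, and the summed signal of 8 neural tube marker genes, in each embryo, with the mean and SD of 3 embryos per genotype. In each panel all 3 Tcof1+/- embryos lie below all 3 wild types, and none of the 4 genes passed over all probe sets. Only cases without overlap are shown, which held for 3 of the 19 tested member probe sets. On the brightest Smo probe set, not shown, the nearest embryos of the genotypes stood at 807.9 and 807.6.

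Genes that act between Smo and Gli numbered 19 tested, with 9 positive, 10 negative and a median of 0.00. The smallest p belonged to Arrb2, a beta-arrestin gene, and Csnk1d, a casein kinase gene. Arrb2 was at 130 ± 10.7 against 100.5 ± 13.5 (SD, n = 3), a log2 difference of -0.37 (limma adjusted p = 0.782), and its second probe set differed by 0.13. Csnk1d was at 2688 ± 84.5 against 2431 ± 104, a difference of -0.15 (adjusted p = 0.784). Its other 4 probe sets differed by -0.02, -0.14, -0.16 and 0.28. On the last of these (1449932_at) the genotypes did not overlap, at 230 to 274 in wild types and 276 to 351 in heterozygotes (limma adjusted p = 0.793). The single probe sets named here are therefore not borne out in sign by every probe set of their genes.

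Genes known to respond to Hedgehog in neural tube or mesoderm had 16 tested, 10 positive and 6 negative, with a median of 0.06. Foxc2, a forkhead gene of paraxial mesoderm, gave 417, 377 and 403 in wild types and 346, 355 and 312 in heterozygotes, a log2 difference of -0.24 (SE 0.10, limma adjusted p = 0.781). Foxf1, a forkhead gene of lateral mesoderm around the gut, gave 174, 150 and 165 against 196, 208 and 177, a difference of 0.25 (SE 0.12, adjusted p = 0.810), and its dimmer probe set differed by -0.38. Neither pair of groups overlapped on the brightest probe set, and they had opposite signs.

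Dorsal neural tube genes, on the side away from the Shh source, had 10 tested members, 1 positive and 9 negative, with a median of -0.22. Zic2, a zinc finger gene of the dorsal neural tube, was at 101 ± 11.8 against 73.3 ± 11.1 (SD, n = 3), a log2 difference of -0.45 (SE 0.17, limma adjusted p = 0.774). Msx2, a homeobox gene of the roof of the neural tube and of surface ectoderm, was at 194 ± 12.3 against 163 ± 9.74, a difference of -0.25 (SE 0.12, adjusted p = 0.799), and its second probe set differed by -0.49. Within the first and second scan days the median of this list was -0.23 and -0.26.

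**Figure D5:**
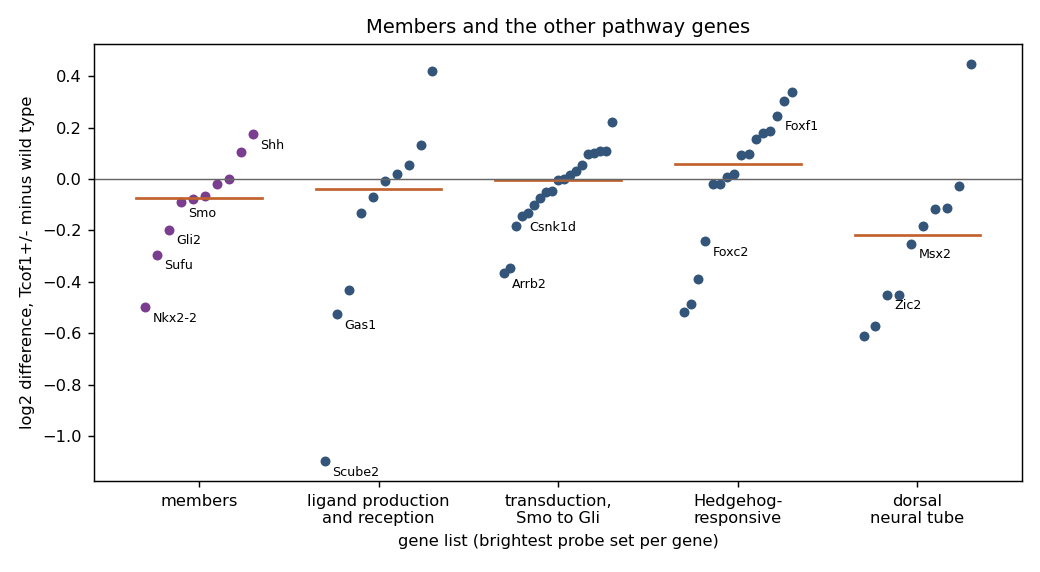
Log2 difference, Tcof1+/- minus wild type, of the brightest tested probe set of each gene (dots, in ascending order within a list) for the 10 members and the 4 lists of other pathway genes, with the median of each list (orange line). Scube2 at -1.10 and Gas1 at -0.53 are the lowest of the ligand production and reception genes, and the dorsal neural tube list has the lowest median, -0.22.

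RNA came from whole embryos, so fewer cells of a type and less RNA per cell cannot be told apart. Markers of tissues that make or receive the ligand were read on the same arrays. The 8 neural tube markers, all above background on all arrays, summed to 2734 to 2742 in wild types and 1954 to 2349 in heterozygotes. The exact two-sided permutation p was 0.1, the smallest that 3 against 3 embryos allow, and 0.700 adjusted over the 7 marker lists. All 8 had negative differences with a median of -0.45, and 7 did not overlap, against 6.18% of all tested probe sets in the lower direction. The exception was Nes, an intermediate filament gene of neural progenitors, named after its values were seen. In limma 0 of the 8 passed over all probe sets, and 7 had an unadjusted p under 0.05, against 6.22% of all tested. The part of this lower neural signal in the values of Smo, Gli2, Gas1, Scube2 and the dorsal genes was not tested. The 6 gut endoderm markers summed to 1101 to 1270 in wild types and 1145 to 1352 in heterozygotes, with 3 positive and 3 negative. Of 5 notochord and node markers 3 were matched, T and Noto not being among them, and the sum of the matched ones was 41.8 to 60.4 against 27.3 to 71.6. Of these 3 only Chrd was above background on all 6 arrays, with Nog on 5 and Foxj1 on 1. The log2 differences of Nog and Chrd were -1.45 and 0.33, so this sum is a weak reading of the tissue. Sums for presomitic mesoderm and somite (1417 to 1987 against 1337 to 1496), heart (8773 to 10239 against 9552 to 11698), yolk sac endoderm (1795 to 9625 against 809 to 14895) and primitive erythroid markers (5828 to 13705 against 339 to 11264) overlapped between genotypes. Yolk sac sums were 1795, 9625 and 8389 in wild-type embryos 1, 2 and 3 and 14895, 809 and 8871 in the heterozygotes. Heterozygous embryo 1 thus had the lowest erythroid and the highest yolk sac sum. Of the members' brightest probe sets, those of Shh, Smo, Gli2 and Nkx2-2 were lowest in this embryo, as was Scube2. Those of Hhip, Sufu, Gli1, Gli3 and Foxa2 were lowest in heterozygous embryo 3. Heterozygous embryo 2 had the lowest yolk sac sum and the highest Shh. The part of blood or yolk sac content in those values was not tested.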

How the data were processed

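Total RNA (100 ng) of single embryos was amplified and labelled in 2 cycles, and 20 µg of cRNA was hybridised per array, per the labels' protocols. The values the authors deposited are linear intensities, 1 for each probe set on each array. They came from GCOS, Affymetrix software, per the submitters' processing notes, with its algorithm not given in the sources used here. Scan days and modules were read from instrument records. Background was read from 27 Bacillus control probe sets.

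Of 45101 probe sets, 64 controls were left out. Intensities were transformed to log2(signal + 1.87), the pseudocount being the 10th percentile, and the 40% with the lowest mean log2 value (a signal of about 13.2 or less) did not enter the fit. Differences are on this scale, which understates changes of dim genes. Genotype was fitted with limma 3.58.1 (lmFit and trended eBayes, R 4.3.3) on all 6 arrays. Tests were two-sided and adjusted by Benjamini-Hochberg, with 0.05 as the threshold. The fit was run on simulated data whose log2 differences were larger than any of the members, so that run does not speak to differences of the members' size. Summed marker signals were compared with exact permutation tests. Names came from the platform annotation, with identifiers checked in RefSeq (0 symbols changed). Nothing says how embryos of 1 genotype relate beyond being littermates, and 3 arrays per genotype limit the precision.

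Genes named were the 10 members, Tcof1, the 2 genes with the smallest p of each pathway list and the 3 genes nearest to Shh; any other gene given was picked after its values were seen. Members and lists were chosen with earlier results of these data known. Alternatives were the pseudocount, normalization, filter, trend, array weights, blocks, scan days, probe set choice and leaving out each array.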

Additional observations from a re-analysis of the deposited data

How the results depend on the processing

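No member probe set and no other pathway gene passed under any alternative run (smallest limma adjusted p 0.553 for the members and 0.283 for the 8 named pathway genes). The count over all probe sets, 22, became 0 without the intensity trend, 12 on the first scan day alone, 14 with scan day as a block and 8 to 20 with 1 array left out. With the replicate number as a block it was 10, and this block changed no member's call. Same-numbered embryos did not deviate together (correlations of -0.08, -0.11 and -0.02). Deviations from means of 3 embryos cannot exclude a pairing, and same-numbered embryos shared a scan day. The members' median, -0.07, was 0.016 on the first scan day, -0.20 on the second and -0.13 to -0.02 with 1 array left out. Signs of uncalled differences turned for Ptch1 on the second scan day (-0.11), for Gli1 (0.13) and Gli3 (0.10) on the first, and for Hhip on the second scan day (-0.40), with array weights (-0.033), quantile normalization (-0.031) and equal medians (-0.014). With 1 array left out, ranges that crossed 0 were -0.14 to 0.16, -0.0100 to 0.37, -0.11 to 1.24 and -0.015 to 0.51 for the 4 Hhip probe sets, -0.061 to 0.46 for the dimmest Sufu probe set, -0.21 to 0.044 for Gli1 and -0.12 to 0.056 for Gli3. In all, 311 of 331 member values kept their sign. This count includes settings that cannot change a fitted difference, namely the other filters, no intensity trend and either block. The Tcof1 call was lost with either block (adjusted p = 0.0906 for scan day, 0.182 for the replicate number), without the trend (0.413) and on the first scan day alone (0.217). Signals under about 13.5 cannot be told from background, which limits Hhip, Nkx2-2 and the dim probe sets. Causes were not tested.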

Other observations

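Nog, which encodes the BMP antagonist noggin of the notochord and dorsal midline and was picked out after its values were seen, was dim and did not overlap between genotypes. It gave 23.3, 25.3 and 22.1 in wild types and 14.6, 10.6 and 2.04 in heterozygotes, with heterozygous embryo 3 at background (log2 difference -1.45, limma adjusted p = 0.772). Chrd, the gene of the BMP antagonist chordin, likewise picked out, gave 21.7, 31.8 and 17.2 against 43.6, 27.0 and 21.0 and overlapped. The Hedgehog-responsive list, with 10 positive and 6 negative differences, held other ventral neural tube genes, also named after their values were seen, and these went both ways. The log2 difference was 0.30 for Nkx2-9, 0.18 for Foxa1 and 0.01 for the floor plate gene Ntn1, with limma adjusted p of 0.870, 0.812 and 0.993. It was -0.39 for Nkx6-1 and -0.52 for Olig2, with limma adjusted p of 0.838 and 0.841. The genotypes overlapped on each. Nkx6-1 was at -0.65 within the first scan day and 0.14 within the second, and Olig2 at -0.81 and 0.06, so the sign of both turned between days.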
